A study of Mus musculus with 26 samples.

Results

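Notch signaling passes between neighboring cells. A ligand of the Delta or Jagged family on one cell binds a Notch receptor on the next, which releases the intracellular part of the receptor to the nucleus, where it joins the DNA-binding protein RBPJ. The best known target genes of this complex encode Hes and Hey proteins, basic helix-loop-helix repressors. In embryonic stem cells the pathway is known for its part in leaving pluripotency and in the choice of neural fate. The 10 genes described here were listed by name: the 3 ligands Dll1, Dll3 and Jag1, the 2 receptors Notch1 and Notch3, and the 5 repressors Hes1, Hes5, Hes6, Hey1 and Hey2. They are 10 of the 21938 protein-coding genes of the mouse annotation. All 10 were found by name.

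The cells are E14, a line of mouse embryonic stem cells grown without feeder cells. After 48 h of culture the medium was changed for the last 4 h to one with leukemia inhibitory factor (LIF), which keeps the cells pluripotent (mESC+), or to one without LIF and with 1 µM retinoic acid (RA), which drives them into differentiation through its nuclear receptors (mESC−). Withdrawal of LIF and addition of RA came together, so the effects of the pair cannot be told apart. Accessible chromatin was measured by ATAC-seq in 1 library per state, RNA in 3 libraries per state, and enhancer probabilities were predicted by the authors from 1 ChIP-seq library per histone mark and state. With 1 ATAC-seq library per state no difference in accessibility has a replicate check, and none was tested.

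The peak lists held 163484 peaks in mESC+ and 141465 in mESC−, which merged into 180036 regions, of which 117520 had a peak in both lists. The read depth of the libraries is unknown. A peak height is given as the fold enrichment over the local background that the peak caller MACS2 assigned, and a percentile ranks it within its own list. A centred difference is the log2 ratio of the fold enrichment in mESC− to that in mESC+ minus its median over all shared regions, which was −0.09. A difference past 1.5-fold on this scale was called. The label of the cells was read against 8 markers of embryonic stem cells: 4 of them had a row in the RNA table, among them Zfp42 with a mean of 18458 normalized counts and Sox2 with 8169, and 7 had a promoter peak in both lists. The other 4 (Pou5f1, Nanog, Esrrb and Dppa5a) had no row. These readings do not settle the label, since which genes have a row depends on the authors' comparison of the states. Promoter peaks in both lists were also found for all 4 neural progenitor, all 3 mesoderm and all 3 fibroblast markers looked at.

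The RNA table listed 5 of the 10 genes: the receptors Notch1 and Notch3, the ligand Jag1 and the repressors Hes6 and Hey1. Over all protein-coding genes, 9.04% had a row. Which genes the table lists depends on the authors' own comparison of the states, so a row is a description of the table and gives neither a direction nor a size here. Dll1, Dll3, Hes1, Hes5 and Hey2 had no row, and the table says nothing of their level.

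The only level used is the authors' mean of normalized counts over all 6 RNA libraries, without a value per library, and it was divided by the summed exon length for a comparison between genes. Jag1 had the highest of the 5 levels with 227 per kb, followed by Notch3 with 192 and Hes6 with 159. Notch1 followed with 115 per kb and Hey1 with 38.0. The median over the 1984 protein-coding genes of the table was 143 per kb, so Jag1, Notch3 and Hes6 lay above the middle of the table and Notch1 and Hey1 below it. Without a spread over libraries, it cannot be said which neighbors in this order differ. The mean also holds both states, so it is no level of mESC+ or of mESC−. In a bulk sample, fewer cells that express a gene and less RNA per cell cannot be told apart.

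**Figure D1:**
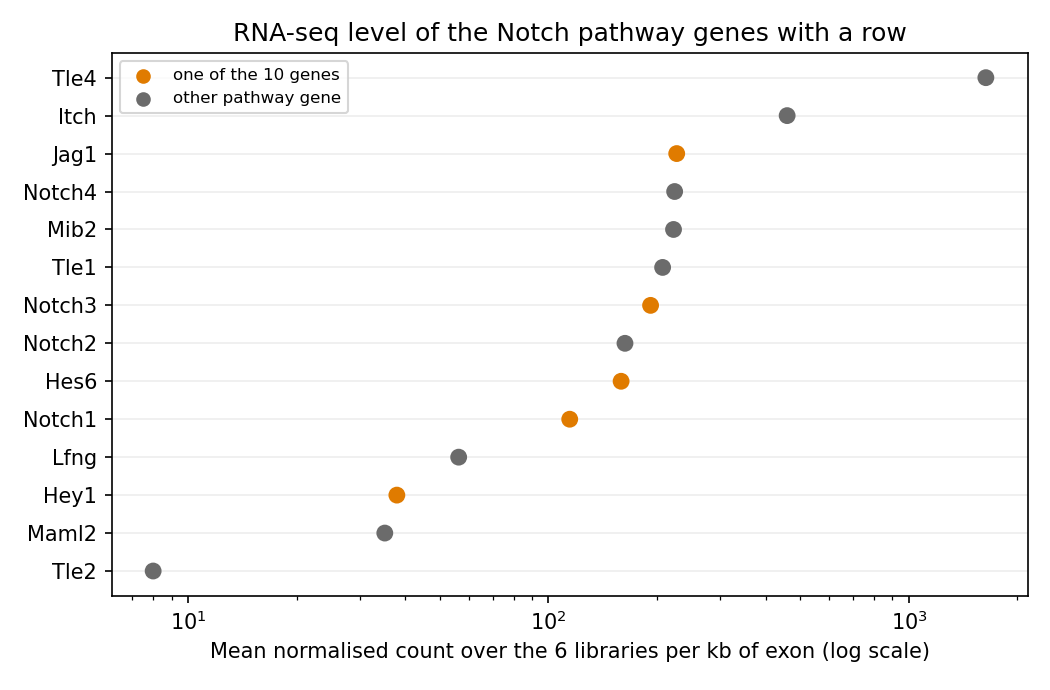
The authors' mean of normalized counts over the 6 RNA-seq libraries per kb of exon (x axis, log scale) for the 5 Notch genes with a row (orange) and 9 other pathway genes with a row (gray). The 5 genes run from 38.0 (Hey1) to 227 (Jag1), and Tle4 stands highest with 1634.

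Promoter accessibility was read as the strongest peak within 1 kb of the gene start. Of the 10 genes, 9 had such a peak in mESC+ and the same 9 had one in mESC−. Among all protein-coding genes the shares were 67.7% in mESC+ and 66.4% in mESC−. By strongest peak, none of the 9 promoters differed by more than 1.5-fold in either direction. Such differences were rare in general: of the 14403 promoters with a peak in both lists, 1.11% were higher in mESC− and 1.03% were higher in mESC+. These 9 promoters therefore had a peak in both states, with no called difference between the 2 libraries by strongest peak. For Dll3 and Hes1 the strongest peaks of the 2 libraries are different peaks. The overlapping pair of peaks at Dll3 had a centred difference of −0.68, which is past 1.5-fold and higher in mESC+.

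The ligand promoters differed among themselves. Jag1, which encodes a Jagged ligand, lies on chromosome 2 from 137081456 to 137116644 (GRCm38, minus strand). The strongest promoter peak of Jag1 had a fold enrichment of 5.87 in mESC+ and 7.44 in mESC−, a centred difference of 0.43 that was the highest of the 9. That peak lies 897 bp upstream of the start, and the broad peak over the start itself had 5.32 and 5.12. The higher value in mESC− was thus seen upstream and not at the start.

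Dll1, a Delta ligand on chromosome 17 from 15367354 to 15376872, had 6.41 in mESC+ and 5.61 in mESC−, with a centred difference of −0.10. Its peak lies 869 bp downstream of the start, in an intron. A lower peak 206 bp upstream of the start of Dll1 had 3.23 and 3.88, a centred difference of 0.36. The 2 promoter peaks of Dll1 therefore differed in opposite directions, neither past 1.5-fold.

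Dll3, a Delta-like protein that acts mostly within the cell that makes it, is encoded on chromosome 7 from 28293553 to 28302238. Its promoter had 6.38 in mESC+ and 5.13 in mESC−, with a centred difference of −0.22. These are different peaks, 464 bp apart. The peak 116 bp upstream of the start had 6.38 in mESC+ and 3.74 in mESC−, a centred difference of −0.68 that is past 1.5-fold. The peak 348 bp downstream, in an exon annotated as untranslated, was in the mESC− list only, with 5.13. At Dll3 the strongest accessible position in the 2 libraries therefore lay on opposite sides of the annotated start. The start that RefSeq gives for Dll3 lies 453 bp further downstream, so that both peaks are upstream of it.

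The receptor promoters had higher values in mESC−, by small amounts. Notch3, on chromosome 17 from 32120820 to 32166852, had a fold enrichment of 6.44 in mESC+ and 6.82 in mESC−, with a centred difference of 0.18 and a peak 62 bp upstream of the start in mESC+. Notch1, on chromosome 2 from 26457903 to 26516663, was the gene without a promoter peak at its annotated 5′ end. A second annotated start lies 12841 bp further downstream and had a peak of 6.30 in mESC+ and 7.45 in mESC−, a centred difference of 0.34. RefSeq gives this second start for Notch1.

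Among the repressors, Hes6 and Hey2 stood apart in height. Hes6, which encodes a Hes protein that counteracts Hes1, lies on chromosome 1 from 91411483 to 91414038 and had 14.3 in mESC+ and 13.8 in mESC−, at percentiles 92.3 and 92.9 of the lists. Hey2, on chromosome 10 from 30832359 to 30842801, had 13.3 and 11.8, at percentiles 89.7 and 86.7. Both were among the most accessible positions in both states, and their centred differences were 0.05 and −0.08, that of Hes6 being −0.04 without centring. The summit of the high Hes6 peak lies 689 bp downstream of the annotated start in mESC+ and 750 bp downstream in mESC−. RefSeq gives Hes6 a further start 816 bp downstream of the annotated one. A second, lower peak of Hes6, 185 bp upstream of the annotated start, had 6.30 and 4.71, a centred difference of −0.33.

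Hey1, on chromosome 3 from 8663359 to 8667256, came next with 8.32 in mESC+ and 7.75 in mESC−, in one peak of 1152 bp in mESC+ and 1150 bp in mESC− that spans the start. Its centred difference was −0.01, the closest to 0 of the 9. By strongest peak, the Hey promoters and that of Hes6 were therefore the most accessible of the set, and the heights in the 2 libraries lay close together.

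Hes1 and Hes5, the repressors most often used as readouts of Notch activity, had the lowest promoter peaks of the 9 in mESC+. Hes1, on chromosome 16 from 30064384 to 30067796, had 4.78 in mESC+ and 5.44 in mESC−, with a centred difference of 0.28. The 2 summits lie 1118 bp apart, and the overlapping pair of peaks gave 0.29. Hes5, on chromosome 4 from 154960923 to 154962371, had 5.76 in mESC+ and 4.19 in mESC−, at percentiles 39.6 and 10.2, with a centred difference of −0.37. That peak lies 554 bp after the start, and the lower peak over the start of Hes5 had 4.40 and 3.97, a centred difference of −0.06. By strongest peak, Hes5 had the lowest centred difference of the 9 and Hes1 stood next below Jag1, but over the start itself Hes5 was close to 0. For scale, the 5th and the 95th percentile over all promoters with a peak in both lists were −0.36 and 0.38, which leaves Jag1 just above and Hes5 just below that range.

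**Figure D2:**
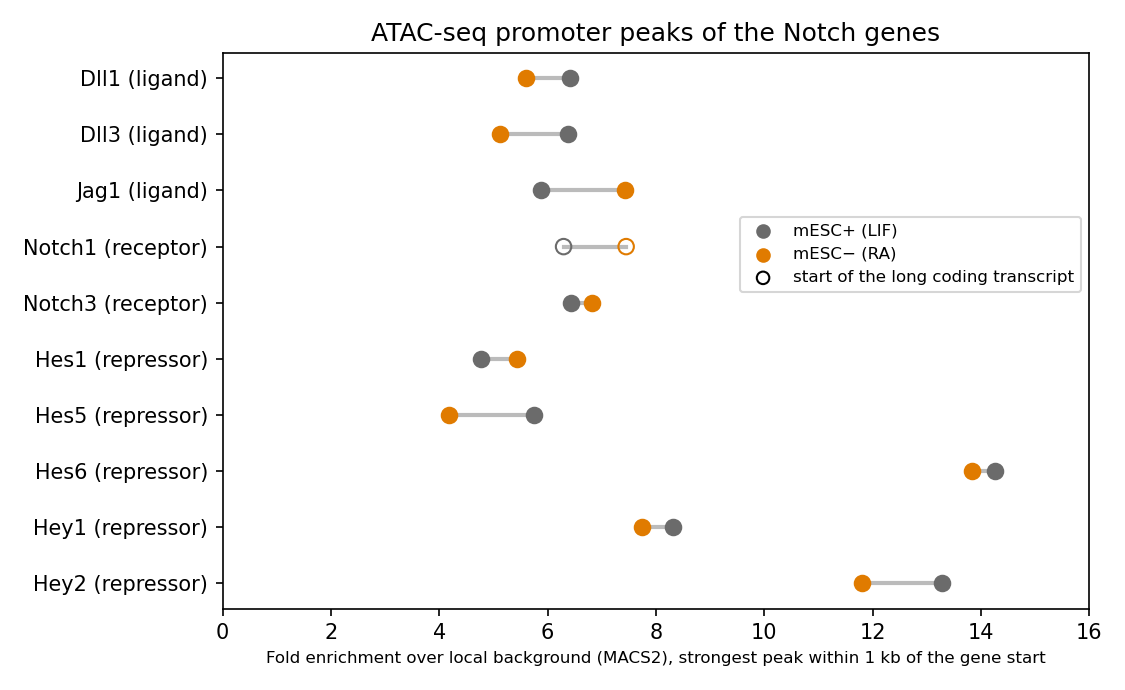
Fold enrichment (x axis) of the strongest ATAC-seq peak within 1 kb of the gene start for each gene, in mESC+ (gray) and mESC− (orange), 1 library each. Notch1 is drawn with open circles because its peak belongs to the start of the long coding transcript. Hes6 and Hey2 lie above 11 in both states, and the other 8 genes lie between 4.19 and 8.32.

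Read by role, the centred promoter differences were −0.22, −0.10 and 0.43 for the ligands, 0.18 and 0.34 for the receptors and −0.37 to 0.28 for the 5 repressors. The 0.34 is that of Notch1 at its second annotated start, since it had no peak at its 5′ end. The −0.22 of Dll3 and the 0.28 of Hes1 each compare 2 different peaks, and their overlapping pairs had −0.68 and 0.29. The ranges of the roles overlap. Ligands and repressors each held values on both sides of 0.

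The sequences of the promoters were looked at because RBPJ and the Hes and Hey proteins bind known short motifs. RefSeq promoters (250 bases before to 50 after a start, GRCm38.p6) matched 8 of the 10 genes, with 10 promoters. Hes1 and Hey1 had no entry, so the promoter counts below do not cover them. The RBPJ core TGGGAA was in the 300-bp windows over the summits of their promoter regions. There were 1 and 2 matches in the windows 260 bp upstream and 852 bp downstream of the Hes1 start, and 1 in that of Hey1. The RBPJ core TGGGAA, searched on both strands like all motifs here, was found in 2 of the 10, those of Hes5 and Hey2, against 25.6% of all 32851 promoters. The promoters of both are shown with the core in capitals, since Hes5 and Hey2 are targets of the pathway and each held 2 matches in opposite orientation.

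Hes5, chr4:154960673-154960972, plus strand: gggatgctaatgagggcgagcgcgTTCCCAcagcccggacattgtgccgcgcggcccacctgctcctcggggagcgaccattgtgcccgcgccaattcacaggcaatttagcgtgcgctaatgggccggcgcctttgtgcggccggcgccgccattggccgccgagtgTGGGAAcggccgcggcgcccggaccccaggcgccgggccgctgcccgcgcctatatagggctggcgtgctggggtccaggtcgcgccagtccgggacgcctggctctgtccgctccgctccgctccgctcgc

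Hey2, chr10:30842734-30843033, minus strand: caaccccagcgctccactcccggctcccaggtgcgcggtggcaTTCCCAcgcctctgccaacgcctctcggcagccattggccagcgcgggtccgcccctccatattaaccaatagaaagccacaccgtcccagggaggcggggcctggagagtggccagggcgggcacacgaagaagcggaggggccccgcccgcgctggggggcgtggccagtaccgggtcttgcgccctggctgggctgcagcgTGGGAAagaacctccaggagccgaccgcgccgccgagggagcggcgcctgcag

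Counted from the first transcribed base as 0, the cores of Hes5 begin at −226 and −82 and those of Hey2 at −207 and −3. The Hey2 promoter peak covers its printed stretch in both libraries, with summits at the same base. The printed stretch of Hes5 lies in the lower of its 2 promoter peaks, which had 4.40 in mESC+ and 3.97 in mESC−, while the higher one has its summit in a coding exon. Both printed promoters with the RBPJ core thus lay in a peak of both lists.

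Hes and Hey proteins bind the class C site CACGCG, and Hes proteins also bind the N-box CACNAG. The class C site was found in the promoters of Jag1 and Dll1, 2 of 10, against 9.27% of all promoters. The N-box was found in 4 of 10, those of Hes6, Notch1, Dll1 and Notch3, against 42.5%. The E-box CACGTG was found in 0 of 10 against 7.15%. The Jag1 promoter, with its pair of class C sites in capitals, and the Notch1 promoter, with its N-boxes in capitals (the last 2 overlap), are shown as a ligand and a receptor promoter with more than one match. The printed stretch of Jag1 lies under the peak over its start (5.32 and 5.12, a centred difference of 0.04) and not under the upstream peak.

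Jag1, chr2:137116471-137116770, minus strand: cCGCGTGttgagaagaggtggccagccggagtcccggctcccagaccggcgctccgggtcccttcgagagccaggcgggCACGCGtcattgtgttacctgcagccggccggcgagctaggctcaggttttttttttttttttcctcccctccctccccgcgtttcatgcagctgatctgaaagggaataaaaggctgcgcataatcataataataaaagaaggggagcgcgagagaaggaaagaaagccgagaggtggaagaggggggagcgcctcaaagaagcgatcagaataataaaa

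Notch1, chr2:26503773-26504072, minus strand: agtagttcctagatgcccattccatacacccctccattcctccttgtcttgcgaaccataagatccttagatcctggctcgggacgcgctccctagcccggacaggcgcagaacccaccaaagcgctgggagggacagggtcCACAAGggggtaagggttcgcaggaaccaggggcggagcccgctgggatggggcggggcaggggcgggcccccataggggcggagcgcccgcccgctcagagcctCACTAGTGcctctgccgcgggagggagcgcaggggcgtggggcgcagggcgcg

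The median GC content of the 10 promoters was 63.8%, against 52.7% over all RefSeq promoters, and the part of GC content in the motif counts was not tested. A match is a string of letters and not a bound site. The shares of the 10 promoters rest on so few sequences that the exact 95% interval of 2 of 10 runs from 2.52% to 55.6%, which covers the share over all promoters for both the RBPJ core and the class C site.

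Within 100 kb of the 10 gene bodies lay 316 merged regions, of which 207 were in both lists. In the mESC+ list only were 73 regions, or 23.1% (exact 95% interval 18.6% to 28.1%), against 23.7% of all regions. In the mESC− list only were 36, or 11.4% (8.11% to 15.4%), against 11.0% of all. Both shares over all regions lie inside the intervals of the Notch genes, which cover counting error only.

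The shares of the roles were close to each other. The mESC+ list alone held 20 of the 88 regions near ligands, 18 of the 81 near receptors and 35 of the 147 near repressors. The mESC− list alone held 11, 10 and 15. As shares these were 22.7%, 22.2% and 23.8% for mESC+ and 12.5%, 12.3% and 10.2% for mESC−, and the intervals of the roles overlap. Of the 316 regions, 169 were intergenic, 92 lay in introns, 30 in coding exons and 22 in untranslated exons.

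Regions in one list only were weak, near the 10 genes as over all regions. Near the 10 genes their median percentile was 20.8 in mESC+ and 12.3 in mESC−, against 55.8 and 53.8 for the shared ones. Over all regions the medians were 26.3 and 18.9, against 62.6 and 57.8. None of the 3 highest regions of any of the 10 genes was in one list only. The highest one-list region, 74602 bp from the start of Dll3 in the direction of transcription, had a fold enrichment of 8.42 in mESC+. It is an exception: every other one-list region had at most 7.30.

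**Figure D3:**
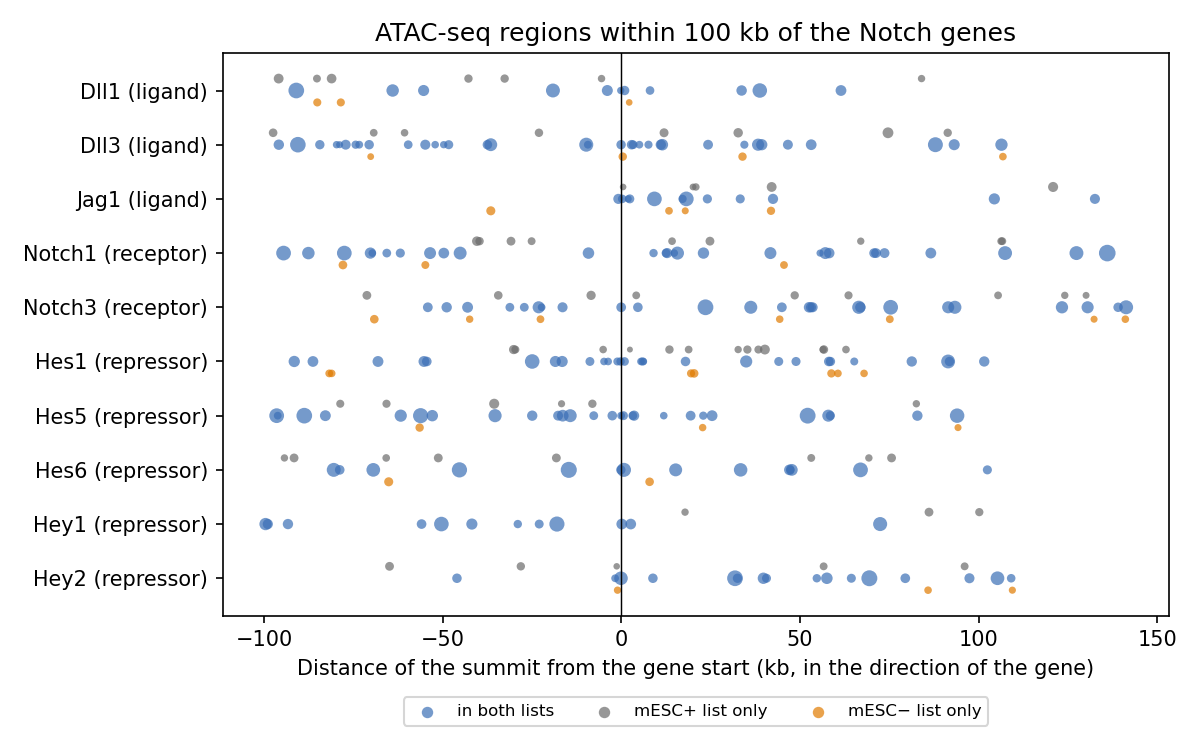
Merged ATAC-seq regions within 100 kb of each gene body, by the distance of the summit from the gene start (x axis, kb, positive in the direction of transcription). Blue regions are in both lists, gray in mESC+ only (upper row of each gene) and orange in mESC− only (lower row), and the dot area grows with the higher fold enrichment. The large dots are blue for all 10 genes.

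For comparison, 6 known direct targets of RA, among them Cyp26a1 and Stra8, had 218 regions within 100 kb. Of these, 53 or 24.3% were in the mESC− list only (18.8% to 30.6%), and 34 or 15.6% in the mESC+ list only. Around RA targets the order of the shares was the reverse of that around the Notch genes. The interval of the mESC− share of the RA targets lies above that of the Notch genes (8.11% to 15.4%), a difference that was not tested.

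**Figure D4:**
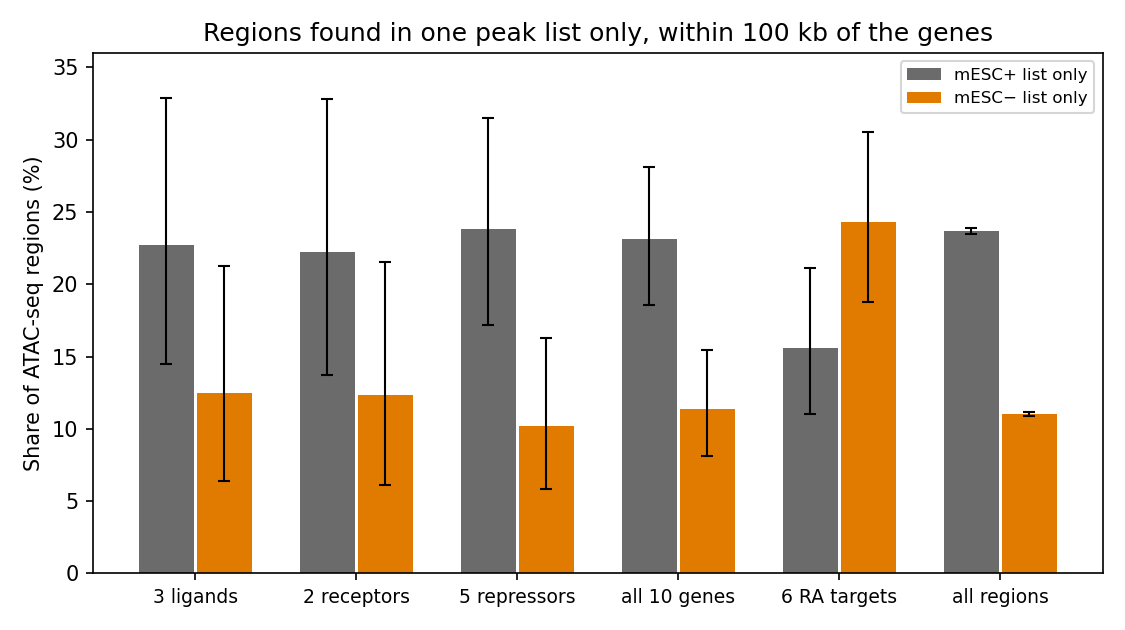
Share of merged ATAC-seq regions found in the mESC+ list only (gray) and in the mESC− list only (orange), with exact 95% intervals for counting error. The 3 role groups lie close to all regions (23.7% and 11.0%), while the 6 RA targets have 15.6% and 24.3%.

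Shared regions were compared by height. Of the 207 near the Notch genes, 3 were past 1.5-fold higher in mESC−, or 1.45% (0.300% to 4.18%), against 4.05% of all shared regions. Higher in mESC+ were 9, or 4.35% (2.01% to 8.09%), against 4.61% of all. The median centred difference was 0.08 near ligands, −0.03 near receptors and 0.00 near repressors. The RA targets had 12 of 131 regions higher in mESC−, or 9.16%, and 3 higher in mESC+.

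The receptors held 3 of the 9 regions that were higher in mESC+ and none of those higher in mESC−. In Notch1, a region in an intron 41690 bp from the annotated start had 10.3 in mESC+ and 5.87 in mESC−, a centred difference of −0.72. Its neighbors inside the gene differed less, from −0.22 to 0.34 over the other 9 shared regions of the gene. For Notch3, a region 123308 bp from the start, in an intron of Rrp1b, had 10.8 and 6.17, a centred difference of −0.72. The highest region of Notch3 in mESC+, in a coding exon 23514 bp from the start, had 17.9 in mESC+ and 13.5 in mESC−, a centred difference of −0.32 that was not past the threshold.

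The central 121 bases of the Notch1 region, and of the Jag1 intronic region described next, are shown because they had the lowest centred differences of these genes. Capitals mark the N-box. Both are GRCm38.p6, plus strand.

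Notch1, chr2:26474913-26475033: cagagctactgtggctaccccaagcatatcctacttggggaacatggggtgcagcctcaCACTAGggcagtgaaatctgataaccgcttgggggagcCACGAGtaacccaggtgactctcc

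Jag1, chr2:137107369-137107489: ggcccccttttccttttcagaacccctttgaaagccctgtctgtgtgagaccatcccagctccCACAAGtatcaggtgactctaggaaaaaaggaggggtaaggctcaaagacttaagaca

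Among the ligands, Jag1 had the 2 highest regions inside its own introns. The region 18147 bp from the start had 14.5 in mESC+ and 15.6 in mESC−. The region 9215 bp from the start had 15.5 and 9.76, a centred difference of −0.58 that lies just inside the threshold. The 2 elements were of near-equal height in mESC+ and of unequal height in mESC−. Of the 13 regions inside Jag1, 8 were in both lists, 3 in mESC+ only and 2 in mESC− only.

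Dll3 had 46 regions, of which 34 were shared, and their median centred difference of 0.16 was the highest of the 10 genes. The one past 1.5-fold near Dll3 was the peak 116 bp upstream of its start. Dll1 had 21 regions, of which 11 were shared, and none was past 1.5-fold. Its highest region, 91039 bp upstream, had 17.7 in mESC+ and 16.6 in mESC−.

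Near the repressors, 5 regions were higher in mESC+ and 3 higher in mESC−. Hes5 had both kinds: a region in an intron of Mmel1, 82897 bp upstream, had 8.50 in mESC+ and 4.74 in mESC− (−0.75, the lowest of all 207), and one in an intron of Plch2, 82830 bp downstream, had 4.49 and 7.70 (0.87). A further region in Plch2 at 57897 bp had 10.5 and 6.52. The regions of Hes5 therefore differed in both directions, and its 27 shared regions had a median of 0.07.

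Near Hes1, the regions at 17921 bp (6.53 in mESC+, 3.76 in mESC−) and at 91437 bp (13.8 and 8.51) were higher in mESC+. The highest region of Hes1, 24998 bp upstream, had 15.3 and 10.5, a centred difference of −0.45 inside the threshold. The 2 highest regions of Hes1 were thus both lower in mESC−, whereas its promoter was not.

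Near Hey1, one region 41886 bp upstream was higher in mESC+ (8.98 and 5.33) and one 93371 bp upstream was higher in mESC− (4.49 and 7.70). Near Hey2, one in an intron of Ncoa7 was higher in mESC− (3.48 and 5.86). Near Hes6, none was past 1.5-fold. The Hey1 and Hes5 regions with 4.49 and 7.70 share their values to all digits given, so heights at this level come in steps. The 3 regions higher in mESC− all had under 5 in mESC+, whereas the 9 higher in mESC+ had 6.38 or more there. The regions were called by their ratio to the mESC+ height, so part of this contrast is built in.

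The highest regions of the other genes differed less. That of Notch1, 135987 bp from its start and beyond its 3′ end, had 19.1 in mESC+ and 19.9 in mESC−, the highest of all 316. That of Hes6, 14756 bp upstream in an intron of Per2, had 18.5 and 15.8. That of Hey2, 69387 bp downstream of the start, had 18.3 and 17.2, and that of Hey1, 18074 bp upstream, had 16.5 and 13.5. Their centred differences ran from −0.20 for Hey1 to 0.15 for Notch1. By gene, the number of regions ran from 15 for Hey1 to 48 for Hes1, and Hey1 was the one gene without a region in the mESC− list only.

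**Figure D5:**
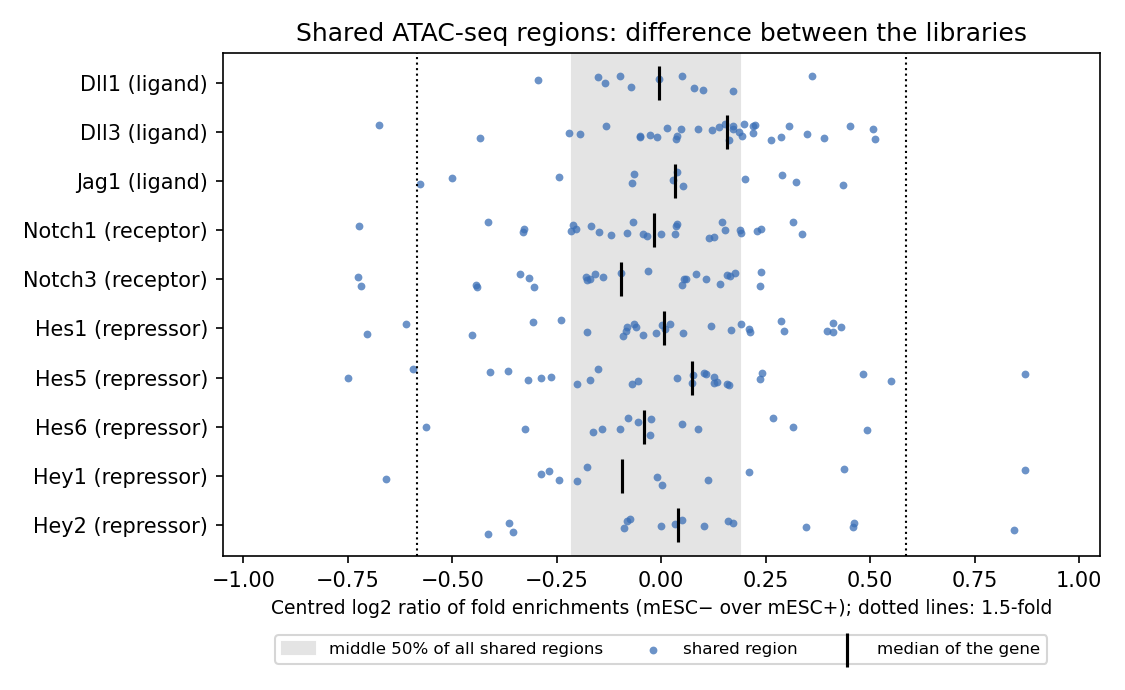
Centred log2 ratio of the fold enrichment in mESC− to that in mESC+ (x axis) for the 207 shared regions by gene, with the median of each gene as a black bar. The gray band holds the middle 50% of all shared regions and the dotted lines mark 1.5-fold. Of the 207 dots, 9 lie left of the dotted lines and 3 lie right of them.

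Motifs in 300-bp windows over the region summits were near those of all regions. The RBPJ core was in 100 of 316 windows, or 31.6% (26.6% to 37.1%), against 28.2% of all windows. The class C site was in 19, or 6.01% (3.66% to 9.23%), against 3.81%, and the E-box in 21, or 6.65%, against 5.23%. The N-box was in 158, or 50% (44.4% to 55.6%), against 49.2%. The nuclear receptor half-site AGGTCA was in 62, or 19.6%, against 19.9%. Direct repeats of such half-sites, to which RA receptors bind, were in 0 of 316 windows for a spacing of 2 bases and in 0 of 316 for a spacing of 5, with an exact 95% upper limit of 1.16% (0.949% for a floor of 3 counts). Over all windows they were in 0.505% and 0.327%. The windows near the 6 RA targets held the repeat with a spacing of 5 in 8 of 218, or 3.67% (1.60% to 7.10%). They held that with a spacing of 2 in 0 of 218, as near the Notch genes, and that with a spacing of 1 in 2 of 218.

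The list of regions with a changing enhancer probability holds 327 regions, of which 141 are higher in mESC−. The probability, a fraction between 0 and 1, says how enhancer-like the histone marks of a region are. None of the 10 genes had such a region within 100 kb, against 4.54% of protein-coding genes. The RA targets had one in 3 of 6 genes (Hoxb1, Stra8 and Dhrs3), each higher in mESC−.

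The nearest changing region was that of Hes5, 150830 bp away at chr4:155113201-155114700 in Morn1, and its probability was 0.016 in mESC+ against 0.970 in mESC−. Its ATAC-seq fold enrichment was 6.12 in mESC+ and 5.61 in mESC−. That of Dll3 lay 180163 bp away at chr7:28482401-28485600 in Samd4b, with 0 in mESC+ and 0.980 in mESC−. Its fold enrichment was 6.30 and 10.9. Both regions were enhancer-like in mESC− alone, but the accessibility differed in that direction only at the one in Samd4b. For the other 8 genes the nearest changing region was between 829400 bp (Hey2) and 8767256 bp (Jag1) away.

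The other genes of the pathway were 44: further receptors and ligands, RBPJ and its cofactors, the proteases that cut Notch, modifying enzymes, ubiquitin ligases and corepressors. Of these, 9 had a row in the RNA table, against 9.04% of all protein-coding genes. They were the receptors Notch2 (163 per kb) and Notch4 (224), the coactivator Maml2 (35.1), the glycosyltransferase Lfng (56.3), the ubiquitin ligases Mib2 (222) and Itch (459) and the Groucho-type corepressors Tle1 (207), Tle2 (8.00) and Tle4 (1634). Groucho-type corepressors are recruited by Hes proteins. Tle4 stood above all 5 of the listed Notch genes.

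A promoter peak in both lists was found for 40 of the 44, and none in either list for Dlk2, Psen2, Dtx1 and Hes7. Past 1.5-fold higher in mESC− were 2 of the 40 promoters, against 1.11% of all promoters with a peak in both lists, a difference that was not tested. Dlk1, which encodes a Delta-like protein without the receptor-binding domain, had 3.27 in mESC+ and 4.98 in mESC−. These were at percentiles 1.27 and 23.5, so the mESC+ peak was among the weakest of its list. Numbl, which encodes a relative of the Notch inhibitor Numb, had 5.30 and 7.61. None was past 1.5-fold higher in mESC+, against 1.03% of all, so 38 of the 40 promoters lay within the threshold.

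Changing enhancer regions lay within 100 kb of 2 of the 44, Maml2 and Tle4, which is close to the 4.54% over all protein-coding genes. That of Maml2, at chr9:13697001-13700900 inside the gene, scored 0.941 in mESC+ and 0 in mESC−, with a fold enrichment of 12.2 and 11.8. The regions near Tle4, at chr19:14666301-14666900 and chr19:14669801-14672000, had 0.854 and 0.853 in mESC+ and 0 in mESC−. The first held no peak in either list, and the second had 9.59 and 9.65. All 3 were enhancer-like in mESC+ alone, with nearly equal accessibility in the 2 libraries where a peak was present.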

How the data were processed

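E14 cells in mESC+ and mESC− were compared, as far as the labels group the libraries. For ATAC-seq, the authors aligned reads by BWA-MEM to GRCm38, filtered duplicates in SAMtools and ran MACS2 on every library, with peak parameters not given in the sources used here. The deposited lists give each peak a fold enrichment (a ratio to local background) and −log10 p and −log10 q values. For the enhancer list, the authors computed per region and state an enhancer probability, a fraction from 0 to 1, from H3K4me1, H3K4me3 and H3K27ac libraries. For RNA-seq, the authors deposited per gene a mean normalized signal over 6 libraries (DESeq2, as the submitters' processing notes and the table's columns show, which also name STAR 2.5.1b). The strand setting of the counting is not given in the sources used here. Columns with the authors' own comparison of the states (log2 fold change, its error, statistic, p-values, and cluster and p-value of the enhancer list) were not used, so no direction is given for RNA. Other ChIP-seq marks were not used. Values and sequences of a few listed genes and regions are not reported here.

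Peaks of both lists were merged with an overlap of at least 1 bp. Gene positions came from GENCODE vM21 and promoter sequences from RefSeq (GRCm38.p6). A promoter peak is the strongest within 1000 bp of the gene's 5′ end. Motifs were searched on both strands, and intervals are exact binomial (Clopper-Pearson). Named are the 10 genes and, of 44 other pathway genes, those with an RNA row, a promoter peak in 1 list only, a promoter difference past 1.5-fold or a changing region, besides RA targets and cell type markers, and promoters without a peak, which were named after their values were seen. The genes, lists and alternatives were chosen with earlier results of these data known. Merging, centring, promoter and motif functions were checked on simulated regions (10 of 10 passed). Software was pysam 0.24.0, SciPy 1.17.1, pandas 2.3.3, NumPy 2.4.6, matplotlib 3.10.9 and Python 3.11.15.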

Additional observations from a re-analysis of the deposited data

How the results depend on the processing

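Of 88 values recomputed under alternatives, 72 were counted as the same and 16 as moved. Shares were judged by their interval, and counts and RNA levels by a factor of 1.5. Promoter differences were judged only by whether the 1.5-fold call changed, so a change of size or sign below it counts as the same. No promoter of the 10 genes was called in the main setting, so a called difference could not change direction. The uncalled promoter difference of Hes6 changed sign without centring (0.05 to −0.04), which lowered the number of promoters above 0 from 4 to 3. No promoter of the 10 genes was past 1.5-fold higher in mESC+, but 1 was by −log10 p (Hes5, −0.68) and 1 with overlapping pairs of peaks (Dll3, −0.68), the latter chosen after seeing the data. The 316 regions became 189 within 50 kb, 138 under a minimum −log10 q of 10 and 99 with the 50000 highest peaks of each list, by construction. With those 50000 peaks, the share in the mESC+ list only was 11.1% near the 10 genes and 15.0% over all regions, and the share in the mESC− list only over all regions was 15.0%. Under the minimum −log10 q of 10, the mESC+ share over all regions was 25.8%, and the mESC− share was 3.62% near the 10 genes and 7.02% over all. Under the same minimum, 9 of the 10 genes had a promoter peak in mESC+ and 7 in mESC−. This change was counted as the same by the factor of 1.5, and the share over all genes was not computed at this setting. An overlap of 50% gave 24.3% and 11.7% over all regions. Within 200 kb, 2 of the 10 genes had a changing enhancer region. The cause of the shifts in the shares was not tested. No paired analysis was possible because each state has 1 ATAC-seq library and the RNA table gives only a mean over all libraries, and for the same reason no library could be left out.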

Other observations

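Markers of other lineages were read from the same files. The neural progenitor markers Pax6, Sox1 and Neurog2 and the mesoderm markers T, Tbx6 and Mesp1 had no row in the RNA table, yet each of them had a promoter peak in both lists. Neurog2 had the highest of these peaks, with 12.2 in mESC+ and 12.8 in mESC−. Sox1 had a changing enhancer region within 100 kb that was higher in mESC−, and Sox2 had one that was higher in mESC+. Of the primitive endoderm markers, Gata6 had a row (8.31 per kb), and of the fibroblast markers Thy1 (42.0 per kb). The promoters of the markers named here were within 1.5-fold between the libraries where a peak was present in both. Esrrb, Gata4 and Pdgfra had no peak within 1 kb of the annotated gene start.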
